A study of Mus musculus with 26 samples.

Results

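Libraries of Notch2-/- glioma cells were set against libraries of control glioma cells over all expressed genes. They were chosen by their titles and genotype labels, and they make up 11 of the 26 libraries of the study, 5 of Notch2-/- and 6 of control. All 26 libraries are bulk RNA sequencing of GFP-positive cells sorted by flow cytometry out of early mouse gliomas that had been dissected by the signal of a GFP reporter at the Rosa locus, which Cre recombinase switches on. The Notch2-/- cells were labelled knockout for Notch2 and for the tumour suppressor Trp53, with Notch1 and Rbpj wild type. The Notch1-/- cells (n = 6) were labelled knockout for Notch1 and Trp53, and the Rbpj-/- cells (n = 4) for Rbpj and Trp53. The Notch1-/-Notch2-/- cells (n = 5) were labelled knockout for both receptors and Trp53, and their levels are given for some genes without a test. The control cells were labelled knockout for Trp53 alone, so that loss of Trp53 and the PDGF that drove the tumours were shared by every group. The labels give no age of the mice, do not name the promoter or virus that brought in Cre or PDGF, and do not state whether each replicate is its own animal. The p-values therefore measure the spread between these libraries, which may be technical.

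Notch2 is one of the receptors through which neighbouring cells signal by contact. A ligand of the Delta or Jagged family pulls on the receptor, proteases release its intracellular part, and that part joins Rbpj on DNA and switches on target genes such as those of the Hes and Hey families. In the brain Notch signalling is known for keeping neural stem cells and astrocyte-like cells from differentiating. Rbpj without a Notch partner can hold the same targets down, and Nrarp and the fringe enzyme Lfng adjust the strength of the signal.

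Of 15617 genes tested, 46 passed at an adjusted p under 0.05 (0.295%), 20 higher in Notch2-/- (0.128%) and 26 lower (0.166%), by the quasi-likelihood test of edgeR with Benjamini-Hochberg adjustment. At an unadjusted p under 0.05 there were 2314 genes (14.8%). Of the same 15617 genes DESeq2 called 342 and limma voom 1790, the background for the list counts against control given below. The ranges of the 2 groups did not overlap for 249 genes (1.59%). The genes that rose in Notch2-/- cells included Ccna1, Hfm1, Rpl30, Rps2 and Tnn. Those that fell included S100a3, Scnm1, S100a6, Ankrd35, Cst7 and Notch2. The known target genes of Notch did not pass. The number that passed was 22, 24, 23 and 21 without Notch2-/- replicate 1, 2, 4 or 5, and 24, 26, 84 and 28 without control replicate 2, 3, 4 or 5. Of the 46 genes, 18 also passed when each of the 11 libraries was left out in turn.

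Total counts per library were 37786708 to 48103535 in Notch2-/- and 37613009 to 46703709 in control. Ddx3y of the Y chromosome ran from 45.9 to 133 CPM over the Notch2-/- libraries and from 0 to 122 CPM over the controls. Xist, made from the inactive X chromosome, reached 1624 CPM in control. Sex was not a term of the main fit. Notch2-/- replicates 3 and 4 and control replicate 6 held RNA of both Xist and Ddx3y (Xist 71.3, 1917 and 412 CPM, Ddx3y 45.9, 74.1 and 64.0 CPM). CPM is the count relative to the scaled total of its library, a scale that compares libraries and not genes of different length. Without those 3 libraries 12 genes passed, 8 higher and 4 lower in Notch2-/-, and 11 of them were among the 46, namely Ccna1, Hfm1, Rps2, Rpl30, the pseudogenes Gm12191 and Gm6756, Mpp7, S100a3, S100a6, S100a16 and Scnm1. Leaving them out also makes both groups smaller, here and wherever this setting is given below. Whether the smaller groups or the mixed RNA ended a call was not tested. The cells carried the genes of oligodendrocyte precursors, the cell type that PDGF gliomas resemble, with summed levels of the 18 markers of 14273 to 18459 CPM in Notch2-/- and 12795 to 15883 CPM in control. Trp53 transcripts were counted at 8.14 to 14.8 CPM in Notch2-/- and 8.98 to 15.2 CPM in control, although both groups are labelled knockout. The labels do not say which part of a gene is deleted, and counts over a whole gene do not show it.

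**Figure D1:**
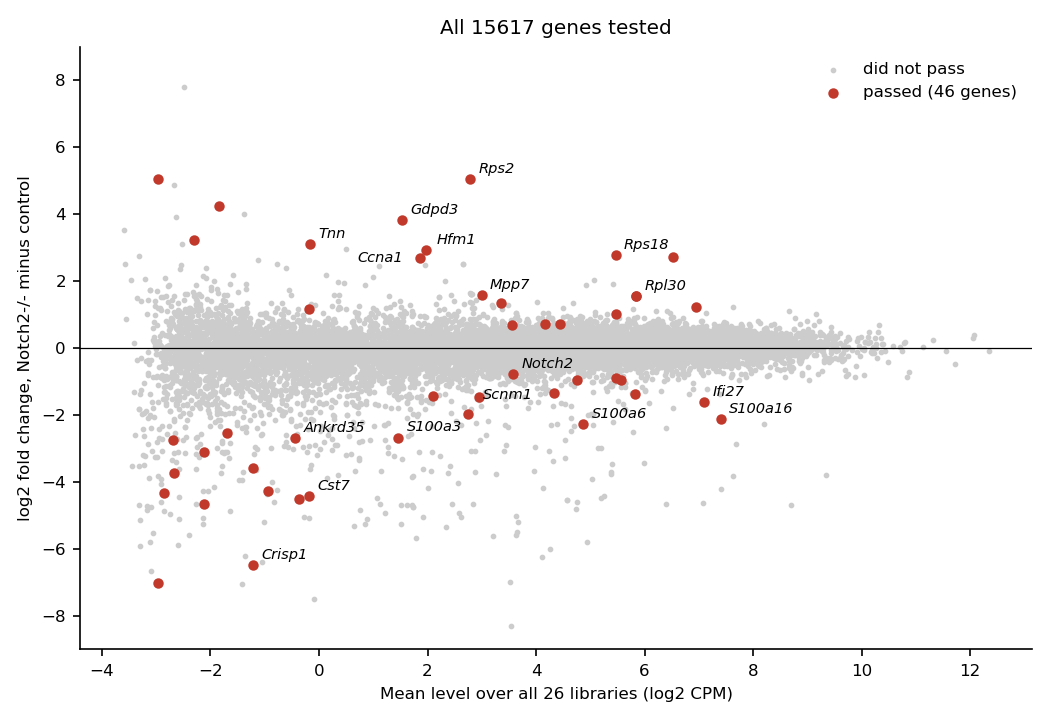
The log2 fold change of Notch2-/- minus control (vertical axis) against the mean level over all 26 libraries in log2 CPM (horizontal axis), 1 point per gene tested. The 46 genes that passed are red and include genes of low and of high level, and 1 gene that did not pass lies outside the axis.

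Notch2 itself (Entrez gene 18129, chromosome 3, 98013538 to 98150367 in GRCm38.p6) was reduced and not absent. Its levels were 6.14, 8.58, 7.34, 7.90 and 6.79 CPM in Notch2-/- replicates 1 to 5, against a lowest, median and highest level of 9.42, 12.0 and 16.4 CPM in control. Every Notch2-/- library lay below every control library, and the log2 fold change was -0.79 ± 0.15 (adjusted p = 0.0203, edgeR). It was also lower in Notch2-/- than in Notch1-/- cells (11.4 to 18.1 CPM, log2 fold change -1.02 ± 0.15, adjusted p = 0.000384) and than in Rbpj-/- cells (14.0 to 18.2 CPM, log2 fold change -1.12 ± 0.17, adjusted p = 0.000888). Against control it no longer passed without the 3 libraries of both Xist and Ddx3y (adjusted p = 0.117), without Notch2-/- replicate 1 (0.0801), without Notch2-/- replicate 5 (0.0707) and without control replicate 5 (0.0554). The other receptors did not pass, with Notch1 at 137 ± 14.2 CPM in Notch2-/- and 109 ± 30.8 CPM in control, Notch3 at 1.77 ± 0.961 CPM in Notch2-/- and 1.97 ± 1.32 CPM in control, and Notch4 at 2.22 ± 0.516 CPM in Notch2-/- and 2.03 ± 0.704 CPM in control (SD, n = 5 and 6, adjusted p = 0.522, 0.878 and 0.923). Rbpj was at 57.4 ± 9.59 CPM in Notch2-/- and 61.2 ± 6.43 CPM in control. The counts do not show every labelled loss. Libraries labelled Notch1-/-Notch2-/- had 9.43 to 12.9 CPM of Notch2, inside the control range, and 82.7 to 239 CPM of Notch1. Libraries labelled Notch1-/- had 88.2, 142 and 214 CPM of Notch1 as lowest, median and highest, against 71.2, 97.4 and 148 CPM in control, so Notch1 transcripts were not lower there. Rbpj-/- libraries had 20.4 to 52.0 CPM of Rbpj, all below the lowest control of 52.9 CPM. The groups are named by their labels throughout.

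No gene that Notch is known to switch on passed against control. Of 12 target genes listed 10 could be tested, 0 passed against control with edgeR, 1 had an unadjusted p under 0.05, and their median log2 fold change was -0.06, where that of all genes tested was 0.01. DESeq2 called 0 of the 10 and limma voom 1, lower in Notch2-/-, where of all 15617 genes they called 342 and 1790. Hes5, a repressor of neuronal differentiation, had 8.54, 8.18, 6.36, 6.73 and 2.38 CPM in Notch2-/- replicates 1 to 5, against 2.27, 3.43 and 7.97 CPM as lowest, median and highest in control (log2 fold change 0.65 ± 0.37, adjusted p = 0.408). The groups overlapped, since Notch2-/- replicate 5 lay near the lowest control. Nrarp, a feedback inhibitor of Notch, had 41.7, 38.5, 29.5, 31.6 and 29.4 CPM in Notch2-/-, against 16.4, 21.7 and 35.2 CPM in control, again with overlap (log2 fold change 0.56 ± 0.31, adjusted p = 0.390). Hes1 averaged 20.0 ± 4.67 CPM in Notch2-/- and 14.7 ± 3.44 CPM in control (SD, n = 5 and 6, log2 fold change 0.45 ± 0.38, adjusted p = 0.574). The Hey family, repressors related to Hes, had log2 fold changes of -0.19 ± 0.19 for Hey1, -0.56 ± 0.26 for Hey2 and -1.11 ± 0.59 for Heyl, with adjusted p of 0.635, 0.320 and 0.375. Id4, an inhibitor of helix-loop-helix factors, averaged 3.13 ± 0.617 CPM in Notch2-/- and 3.05 ± 1.13 CPM in control. A p that misses the threshold does not show that these levels are equal.

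None of the 12 ligand genes passed against control, nor did any of 11 genes of ligand activation and glycosylation, 10 of receptor cleavage, 17 of the transcription complex and its corepressors or 12 of endocytosis and turnover. At an unadjusted p under 0.05 there were 2, 4, 1, 0 and 2 of them, DESeq2 called 0, 1, 0, 0 and 0, and limma voom called 1, 1, 2, 0 and 2. Of all 15617 genes 2314 had such a p, DESeq2 called 342 and limma voom 1790. Lfng, which adds sugar to the receptors, had the log2 fold change 1.02 ± 0.46 (adjusted p = 0.314), with 21.8, 6.91, 6.92, 10.3 and 6.06 CPM in Notch2-/- and 2.76, 4.74 and 9.05 CPM in control. Dll3, a ligand that blocks signalling in its own cell, averaged 34.5 ± 8.78 CPM in Notch2-/- and 38.9 ± 3.26 CPM in control.

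**Figure D2:**
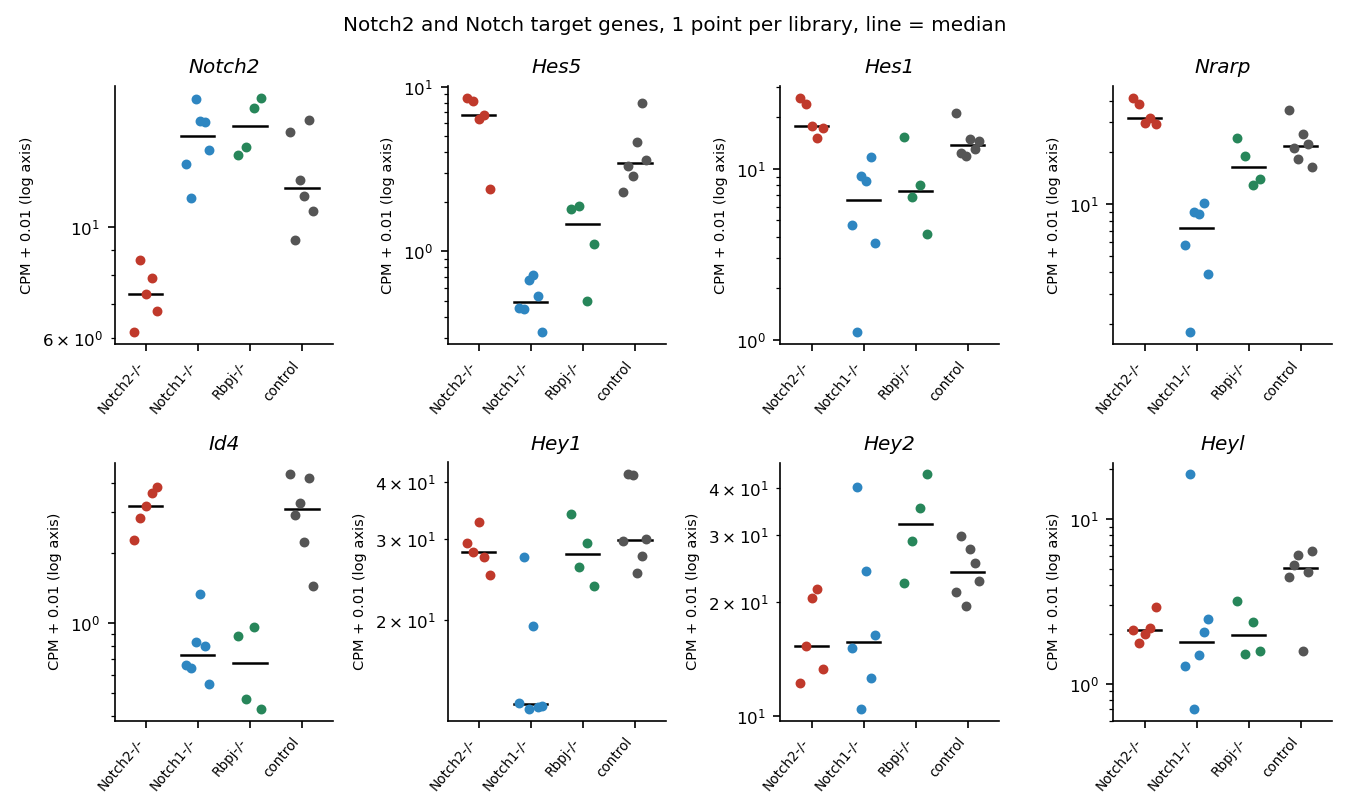
Levels of Notch2 and 7 Notch target genes in CPM plus 0.01 on a log axis, 1 point per library, with a line at the median of the group. Notch2 is lowest in the 5 Notch2-/- libraries, while Hes5, Hes1, Nrarp and Id4 in Notch2-/- lie above every Notch1-/- library and overlap control.

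Promoter sequences are shown for 3 of these target genes, which were set against Notch1-/- and Rbpj-/- cells as well, and for S100a6, which fell in Notch2-/- cells. They are RefSeq windows of GRCm38.p6 that run from 250 bases before to 50 bases after the gene start, all on the plus strand, and capitals mark TGGGAA, the core letters that Rbpj binds, or its reverse complement TTCCCA. Hes5 lies at chr4:154960673-154960972, Id4 at chr13:48260866-48261165, Nrarp at chr2:25180508-25180807 and S100a6 at chr3:90612644-90612943.
Hes5: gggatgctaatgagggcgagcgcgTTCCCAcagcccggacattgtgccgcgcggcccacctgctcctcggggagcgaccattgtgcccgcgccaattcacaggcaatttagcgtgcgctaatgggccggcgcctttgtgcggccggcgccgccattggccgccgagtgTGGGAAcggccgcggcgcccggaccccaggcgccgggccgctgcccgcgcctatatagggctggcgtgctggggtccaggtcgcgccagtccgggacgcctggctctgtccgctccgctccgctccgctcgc
Id4: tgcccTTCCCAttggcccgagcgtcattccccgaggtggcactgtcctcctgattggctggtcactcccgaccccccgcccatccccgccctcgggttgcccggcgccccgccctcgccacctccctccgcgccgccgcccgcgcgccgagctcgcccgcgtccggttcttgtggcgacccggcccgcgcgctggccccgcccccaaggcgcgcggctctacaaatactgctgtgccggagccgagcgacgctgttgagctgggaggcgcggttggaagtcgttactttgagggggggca
Nrarp: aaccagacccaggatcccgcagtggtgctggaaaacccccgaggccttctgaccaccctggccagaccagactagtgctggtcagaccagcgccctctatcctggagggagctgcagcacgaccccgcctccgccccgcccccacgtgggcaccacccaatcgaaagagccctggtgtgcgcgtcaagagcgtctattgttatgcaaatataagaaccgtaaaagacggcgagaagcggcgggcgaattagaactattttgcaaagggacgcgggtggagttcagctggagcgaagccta
S100a6: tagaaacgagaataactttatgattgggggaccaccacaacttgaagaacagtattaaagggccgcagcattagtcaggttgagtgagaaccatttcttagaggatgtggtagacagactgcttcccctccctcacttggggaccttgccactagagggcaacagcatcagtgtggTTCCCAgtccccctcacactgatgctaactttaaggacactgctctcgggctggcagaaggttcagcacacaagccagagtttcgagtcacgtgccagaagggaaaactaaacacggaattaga
The Hes5 window holds 2 matches, 1 on each strand, those of Id4 and S100a6 hold 1 each, and that of Nrarp holds 0. Of the 10 target genes tested, 6 had a window and 3 of these a match. Windows were found for 12 of the 20 genes that rose, 2 of which held a match (16.7%), and for 20 of the 26 that fell, 7 of which held one (35.0%), where 3308 of 12177 genes tested with a window did (27.2%). A match is not a binding site, and its absence covers only these 300 bases.

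The genes that rose in Notch2-/- cells included 2 that are known from meiosis. Ccna1 (Entrez gene 12427), a cyclin of male germ cells, had 13.8, 8.94, 8.12, 6.91 and 9.38 CPM in Notch2-/- replicates 1 to 5, against 0.828, 1.46 and 2.08 CPM as lowest, median and highest in control. The groups lay far apart, and the log2 fold change was 2.70 ± 0.34 (adjusted p = 0.000539, edgeR), the smallest p of all genes in this comparison. Ccna1 was higher than in Notch1-/- (0.602 to 4.90 CPM, log2 fold change 1.83 ± 0.33, adjusted p = 0.00246) and than in Rbpj-/- cells (2.30 to 3.51 CPM, 1.73 ± 0.38, adjusted p = 0.0178). The difference from Rbpj-/- was lost without Rbpj-/- replicate 2 (0.0581) or 4 (0.0782). The libraries labelled Notch1-/-Notch2-/- (n = 5) had 7.69 to 11.5 CPM. Hfm1, a helicase that meiotic crossovers need, had 4.48, 5.85, 2.25, 8.57 and 6.87 CPM in Notch2-/- and 0.484, 0.641 and 1.17 CPM in control (adjusted p = 0.00321, log2 fold change 2.93 ± 0.46). All 5 Notch2-/- libraries exceeded the highest control. In Notch1-/- cells Hfm1 had 5.34 to 11.1 CPM and in Rbpj-/- cells 0.772 to 8.05 CPM, and neither difference from Notch2-/- passed (adjusted p = 0.525 and 0.741).

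Tnn, a tenascin of the extracellular matrix, also rose. Tnn had 2.05, 1.49, 2.14, 2.14 and 1.30 CPM in Notch2-/- and 0, 0.263 and 0.301 CPM in control (adjusted p = 0.00846, log2 fold change 3.11 ± 0.55), and the groups did not overlap. Tnn was the 1 gene of 14 chondroitin proteoglycans and tenascins that passed. Without the 3 libraries of both Xist and Ddx3y the adjusted p of Tnn was 0.0800. Among smaller rises were Polh, the polymerase that copies past ultraviolet damage (26.3 ± 1.68 CPM in Notch2-/- and 16.1 ± 2.50 CPM in control), Wars2, which charges the tryptophan tRNA of mitochondria (14.1 ± 1.97 CPM in Notch2-/- and 8.67 ± 1.18 CPM in control), Ankle1, a nuclease of blood cells (12.7 ± 0.970 CPM in Notch2-/- and 5.00 ± 1.45 CPM in control), and Mpp7, a scaffold of cell junctions (9.34 ± 3.77 CPM in Notch2-/- and 3.10 ± 1.12 CPM in control, SD, n = 5 and 6). Their adjusted p was 0.0165, 0.0228, 0.0316 and 0.0354. Polh no longer passed without control replicate 2, Mpp7 without any of 7 single libraries and Wars2 and Ankle1 without any of 8. Dynlt1a, a light chain of the dynein motor, averaged 21.5 ± 4.04 CPM in Notch2-/- and 13.1 ± 1.60 CPM in control (adjusted p = 0.0295) and was lost without any of 6. Polh, Wars2, Ankle1, Mpp7 and Dynlt1a averaged 20.7, 12.5, 11.0, 14.4 and 16.3 CPM in Notch1-/- cells. In Rbpj-/- cells they averaged 28.6, 12.1, 11.7, 5.50 and 18.9 CPM. These means too lay above those of control, and none of these genes passed between Notch2-/- and either group. Gdpd3, a lipid phosphodiesterase, rose to 6.79, 10.2, 4.76, 8.78 and 1.68 CPM in Notch2-/-, against 0.338, 0.402 and 0.648 CPM in control (adjusted p = 0.0205, log2 fold change 3.83 ± 0.77). It no longer passed under limma voom (0.263), without the 3 libraries of both Xist and Ddx3y (0.142), and without any of 6 single libraries.

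Of 82 ribosomal protein genes tested 3 passed, Rpl30, Rps2 and Rps18, all higher in Notch2-/-, while 75 of the 82 had a negative log2 fold change (median -0.23). This family was counted after its called members were known. The 3 genes have near-identical copies, and their counts depend on how reads were shared between copies, which the sources used here do not give. Rps2 had 122, 65.9, 92.0, 54.8 and 43.9 CPM in Notch2-/- and 1.52, 2.35 and 2.75 CPM in control (adjusted p = 0.00446, log2 fold change 5.05 ± 0.81). The other groups lay near control for this gene save Notch1-/- replicates 1 and 5, with 49.1 and 94.4 CPM, and the difference between Notch2-/- and Notch1-/- did not pass (adjusted p = 0.233). Rpl30 had 92.8, 59.8, 69.0, 40.1 and 68.3 CPM in Notch2-/- and 13.6, 22.0 and 35.5 CPM in control (adjusted p = 0.00222, log2 fold change 1.56 ± 0.23). Notch1-/- cells had 46.7 to 89.1 CPM and Rbpj-/- cells 71.2 to 159.5 CPM, and neither difference from Notch2-/- passed (adjusted p = 0.858 and 0.250). The pseudogene Gm12191 carried nearly the same counts as Rpl30 in every library, 92.4, 59.5, 68.9, 40.2 and 68.1 CPM in Notch2-/-, so the pair is not 2 independent results. Rps18 rose (log2 fold change 2.79 ± 0.60, adjusted p = 0.0354), and was lost without any of 10 single libraries and without the 3 libraries of both Xist and Ddx3y (0.274).

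Of 12 S100 genes tested, which encode small calcium-binding proteins, 4 fell and 0 rose, and the median log2 fold change of the 12 was -1.36. This family too was counted after its called members were known, and the 4, S100a3, S100a6, S100a13 and S100a16, stand together on chromosome 3. S100a3 (Entrez gene 20197) had 0.721, 0.658, 1.69, 1.44 and 0.621 CPM in Notch2-/- replicates 1 to 5, against 3.72, 6.44 and 10.1 CPM as lowest, median and highest in control (log2 fold change -2.68 ± 0.40, adjusted p = 0.00222). S100a6, a gene of proliferating and mesenchymal cells, had 12.3, 9.01, 28.1, 15.0 and 10.5 CPM in Notch2-/- and 28.2, 63.5 and 126 CPM in control (adjusted p = 0.00935, log2 fold change -2.27 ± 0.41). Every Notch2-/- library was below every control library for both genes, by a narrow margin for S100a6 in replicate 3. S100a16 had 102, 29.1, 241, 124 and 89.0 CPM in Notch2-/- and 254, 504 and 735 CPM in control (adjusted p = 0.0228, log2 fold change -2.12 ± 0.43), and S100a13 averaged 45.0 ± 17.6 CPM in Notch2-/- and 116 ± 41.8 CPM in control (SD, n = 5 and 6, log2 fold change -1.37 ± 0.30, adjusted p = 0.0443). The calls of S100a3 and S100a6 held without each single library, while that of S100a16 ended without any of 6 and that of S100a13 without any of 8. S100a16 averaged 183 CPM in Notch1-/- and 206 CPM in Rbpj-/- cells, and S100a13 47.5 and 61.1 CPM. These means too lay below those of control. Neither gene passed between Notch2-/- and either group (edgeR, adjusted p = 0.415 and 0.373 for S100a16, 0.910 and 0.528 for S100a13). S100a6 passed neither against Notch1-/- (adjusted p = 0.162) nor against Rbpj-/- (log2 fold change -1.17 ± 0.42, adjusted p = 0.156). S100a3 was lower than in Notch1-/- (log2 fold change -1.96 ± 0.39, adjusted p = 0.00513) and in Rbpj-/- (-1.67 ± 0.41, adjusted p = 0.0385), and the difference from Rbpj-/- was lost without any of 7 single libraries. With the mean log2 level of microglia and macrophage markers as a term of the fit, the adjusted p of S100a6 was 0.103 and that of S100a3 0.0137.

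Scnm1, a splicing factor, fell to 13.3, 10.2, 16.3, 10.5 and 11.2 CPM in Notch2-/-, against 22.1, 30.4 and 39.9 CPM in control (adjusted p = 0.00274, log2 fold change -1.34 ± 0.21). It was lower than in Notch1-/- (21.6 to 30.6 CPM, adjusted p = 0.00418) and Rbpj-/- cells (15.2 to 40.7 CPM, adjusted p = 0.0159), while Notch1-/-Notch2-/- cells had 11.1 to 15.2 CPM. The difference from Rbpj-/- was lost without the 3 libraries of both Xist and Ddx3y (adjusted p = 0.0672), without Notch2-/- replicate 4 (0.0533) and without Rbpj-/- replicate 1 (0.135). Every Notch1-/-Notch2-/- library lay within the range of Notch2-/- for it and below every control library. Ankrd35 had 0.131, 0.228, 0.222, 0.214 and 0.269 CPM in Notch2-/- and 1.05, 1.33 and 1.77 CPM in control (adjusted p = 0.00846, log2 fold change -2.70 ± 0.48), and 0.205 to 1.31 CPM in Notch1-/-Notch2-/-. The transcribed pseudogene 5830417I10Rik had 24.2, 35.5, 22.2, 31.7 and 27.3 CPM in Notch2-/- and 39.7 to 70.1 CPM in control (adjusted p = 0.00846, log2 fold change -0.89 ± 0.16), and 24.2 to 28.1 CPM in Notch1-/-Notch2-/-. It was lower than in Notch1-/- (63.7 to 94.1 CPM, adjusted p = 1.27e-05) and Rbpj-/- cells (49.1 to 70.7 CPM, adjusted p = 0.00147). Without the 3 libraries of both Xist and Ddx3y the adjusted p was 0.118 for Ankrd35 and 0.0801 for 5830417I10Rik.

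**Figure D3:**
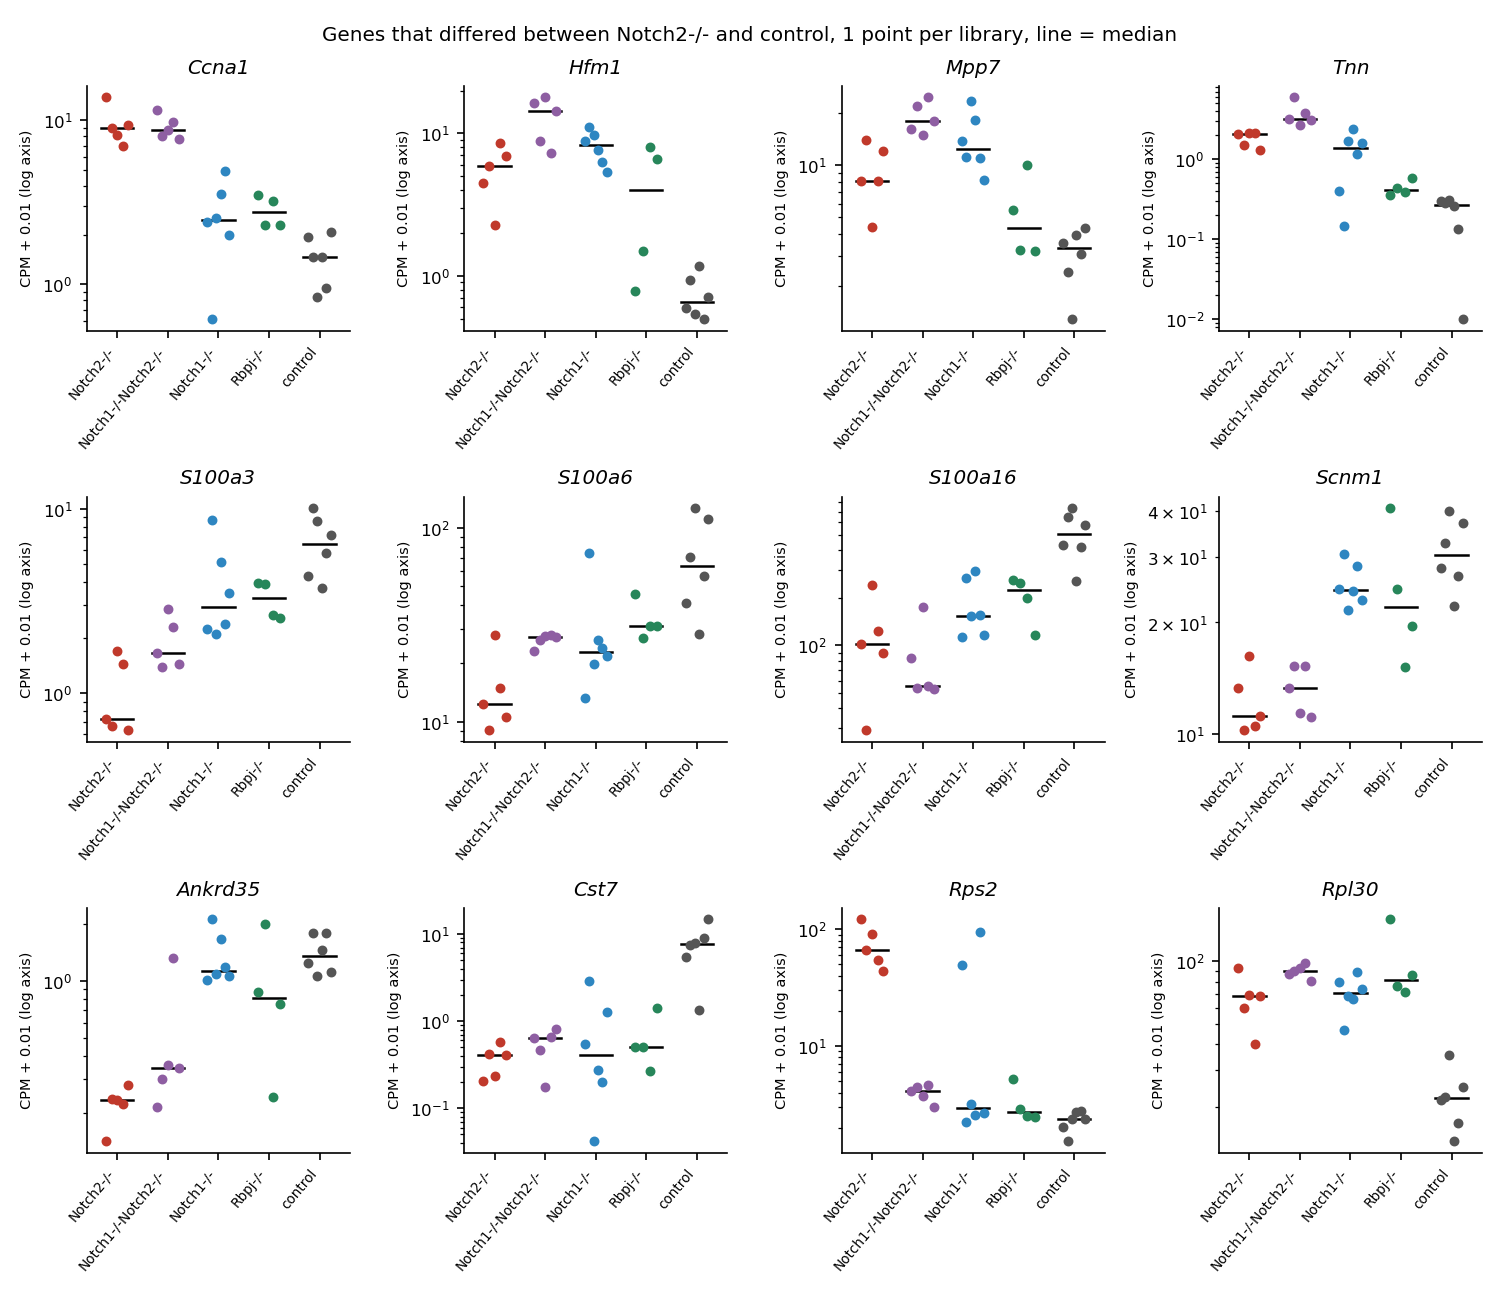
Levels of 12 genes that differed between Notch2-/- and control in CPM plus 0.01 on a log axis, 1 point per library, with a line at the median of the group. Ccna1, Scnm1 and Ankrd35 have similar medians in the libraries labelled Notch2-/- and Notch1-/-Notch2-/-, whereas Rps2 is high in Notch2-/- and in 2 Notch1-/- libraries.

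The S100 genes, Scnm1, Ankrd35 and Ccna1 share a chromosome with Notch2. On chromosome 3, 12 of 756 genes tested passed (1.59%), and 13 of 782 on chromosome 17 (1.66%). Together they held 25 of the 46 genes, while 20 of 14043 genes tested on other chromosomes passed (0.142%) and 1 of the 46 had no placed chromosome. Within 10 Mb of Notch2, leaving Notch2 out, 9 of 279 genes passed (3.23%), 2 higher and 7 lower, and the median log2 fold change of all 279 was -0.03. Within 5 Mb it was 4 of 121 (3.31%). Wars2 stood at 0.99 Mb from Notch2, Ankrd35 at 1.32 Mb, H2bc18, a histone gene, at 1.74 Mb, Scnm1 at 2.88 Mb, and S100a6, S100a3, S100a16 and S100a13 at 7.40, 7.41, 7.47 and 7.49 Mb. Ccna1 stood at 43.0 Mb. H2bc18, a gene of low counts chosen here after its values were seen, had 0.374 to 0.538 CPM in Notch2-/- and 0 to 0.150 CPM in control (adjusted p = 0.0203). The 13 genes of chromosome 17 were Rps2, Rps18, Rnf151, Rnaset2a, Rnaset2b, Polh, Dynlt1a, Tmem181b-ps, Ccr6, H2-T3, Crisp1, D330041H03Rik and A930015D03Rik, of which the last 6, chosen after their values were seen, are listed for their position.

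**Figure D4:**
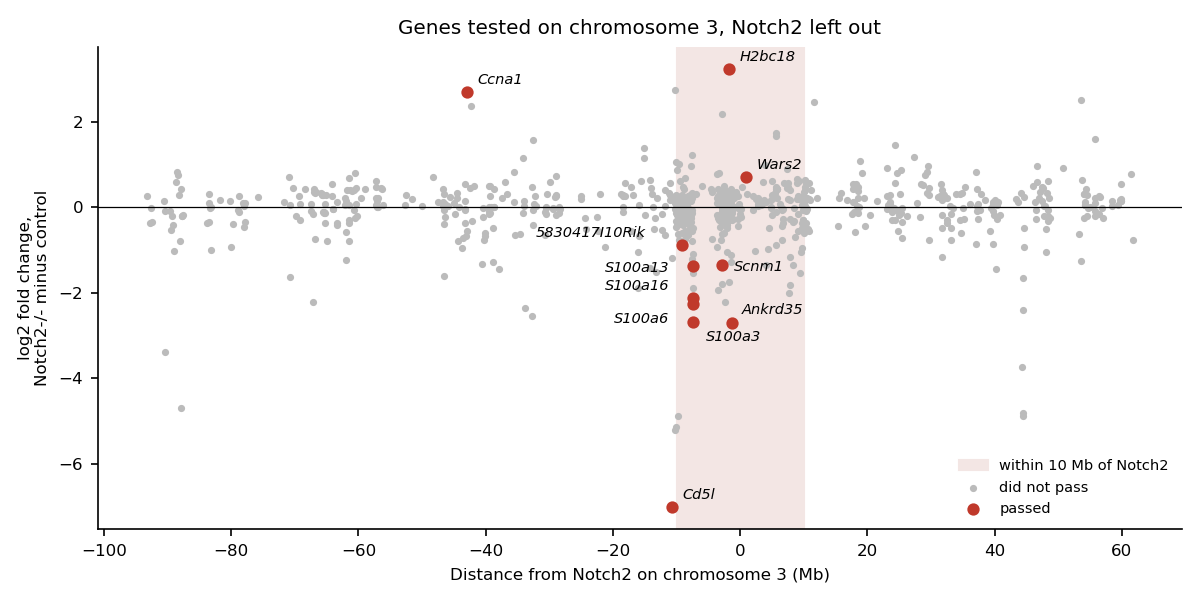
The log2 fold change of Notch2-/- minus control (vertical axis) against the distance from Notch2 in Mb (horizontal axis) for the genes tested on chromosome 3 other than Notch2. Red points passed, and 9 of the 279 genes in the shaded band within 10 Mb of Notch2 are among them.

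Genes of interferon response and antigen presentation had low levels in most Notch2-/- libraries and were uneven among controls, and few passed. The 10 genes of MHC class II presentation, which show peptides to helper T cells, had a median log2 fold change of -5.29, and 0 passed with edgeR, 9 had an unadjusted p under 0.05, DESeq2 called 9 and limma voom 4, all lower in Notch2-/-. Their summed level was 17.7, 11.8, 19.5, 31.5 and 12.1 CPM in Notch2-/- replicates 1 to 5, against 33.0, 1274 and 2964 CPM as lowest, median and highest in control. The lowest control, replicate 1, lay just above the highest Notch2-/- library. The other groups were uneven as well. Their summed class II level was 10.9 to 2145 CPM in Notch1-/- (median 159), 12.1 to 487 CPM in Rbpj-/- (33.7) and 12.1 to 651 CPM in Notch1-/-Notch2-/- (37.5). H2-Ab1, a class II chain, averaged 3.08 ± 1.37 CPM in Notch2-/- and 235 ± 198 CPM in control (SD, n = 5 and 6, log2 fold change -6.25 ± 1.61, adjusted p = 0.116). Of 21 genes of MHC class I presentation, 0 passed with edgeR, 15 had an unadjusted p under 0.05, DESeq2 called 11 and limma voom 4, and the median was -3.09. Their summed level was 2722 to 4787 CPM in Notch2-/- and 4083 to 20737 CPM in control.

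Of 28 genes induced by interferon gamma, 0 passed with edgeR, 24 had an unadjusted p under 0.05, DESeq2 called 10 and limma voom 3, and the median log2 fold change was -3.53. Their summed level was 218, 1397, 243, 566 and 254 CPM in Notch2-/- replicates 1 to 5, against 226, 5534 and 15588 CPM as lowest, median and highest in control. The groups overlapped here, since control replicate 1 lay among the Notch2-/- libraries and the other controls lay at 3514 CPM or more. The sum was 208 to 28730.5 CPM in Notch1-/- (median 3776), 218 to 5855 CPM in Rbpj-/- (503) and 247 to 9819 CPM in Notch1-/-Notch2-/- (422). Of 28 genes of the type I response 1 passed, Ifi27, a mitochondrial protein induced by interferon. It had 75.4, 112, 107, 94.8 and 64.5 CPM in Notch2-/- and 83.5, 261 and 429.6 CPM in control (adjusted p = 0.0346, log2 fold change -1.61 ± 0.34), again with control replicate 1 inside the range of Notch2-/-. It was lost without any of 9 single libraries. Ifi30, a lysosomal reductase of antigen processing, fell to 4.86 ± 0.466 CPM in Notch2-/-, against 13.4 ± 5.91 CPM in control (SD, n = 5 and 6, log2 fold change -1.47 ± 0.31, adjusted p = 0.0316), and Ccl5, a chemokine that draws T cells, to 0.285 ± 0.137 CPM in Notch2-/-, against 6.51 ± 5.13 CPM in control (adjusted p = 0.0295, log2 fold change -4.51 ± 0.94). Both were lost without any of 9 single libraries. Ifi30 averaged 7.10 CPM in Notch1-/- and 8.22 CPM in Rbpj-/- cells, and Ccl5 1.16 and 0.666 CPM. These means too lay below those of control, and neither gene passed between Notch2-/- and either group. Of 7 interferon receptor genes 0 passed with edgeR, 1 had an unadjusted p under 0.05, DESeq2 called 0 and limma voom 1, and their median log2 fold change was 0.02.

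Cst7, an inhibitor of lysosomal proteases in immune cells, and Crisp1, a secreted protein known from the epididymis, fell too, and both were chosen here after their values were seen. Cst7 had 0.197, 0.405, 0.222, 0.561 and 0.393 CPM in Notch2-/- and 1.35, 7.76 and 14.8 CPM in control (adjusted p = 0.00846, log2 fold change -4.43 ± 0.79), with no overlap, and was lost without the 3 libraries of both Xist and Ddx3y (adjusted p = 0.150). It was at 0.0316 to 2.90 CPM in Notch1-/- and 0.257 to 1.39 CPM in Rbpj-/-. Crisp1 had 0.284, 0.304, 0, 0 and 0 CPM in Notch2-/- and 2.62, 12.6 and 18.9 CPM in control (adjusted p = 0.0205). It was at 0 to 5.31 CPM in Notch1-/- and at 0 in every Rbpj-/- library. Cd5l, secreted by macrophages and likewise chosen after its values were seen, was at 0 in all 5 Notch2-/- libraries. It was at 0, 0.394 and 0.632 CPM in control (adjusted p = 0.0203). Set against a floor of 3 counts over the Notch2-/- group, the control mean of Cd5l was 28.2-fold higher. That value takes no account of the spread among controls, the lowest of which was at 0, and is not a lower bound. Rnaset2a and Rnaset2b, near-identical genes of a lysosomal ribonuclease, had the same log2 fold change of -0.94 ± 0.19 (adjusted p = 0.0205) and may share their reads. Rnaset2a averaged 26.6 CPM in Notch2-/-, 22.6 CPM in Notch1-/-, 27.9 CPM in Rbpj-/- and 51.1 CPM in control. Rnaset2a was lost without any of 7 single libraries, Rnaset2b without any of 6, and Crisp1 and Cd5l each without any of 4. None of these 4 genes passed without the 3 libraries of both Xist and Ddx3y.

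Markers of other cells were lower on median as well. The 22 markers of microglia and macrophages had a median log2 fold change of -0.74, with 0 called by edgeR, 10 at an unadjusted p under 0.05, 6 called by DESeq2 and 10 by limma voom. Their summed level was 743, 554, 405, 869 and 632 CPM in Notch2-/- and 479, 1354 and 1766 CPM as lowest, median and highest in control. Control replicate 4 had the lowest level of all controls and lay inside the range of Notch2-/-, and without it 84 genes passed in place of 46. The 16 endothelial markers had a median of -0.54, with 0 called by edgeR, 2 at an unadjusted p under 0.05, 1 called by DESeq2 and 0 by limma voom, and summed to 77.4 to 192 CPM in Notch2-/- and 120.5 to 400.5 CPM in control. The 8 markers of T and NK cells that could be tested had a median of -4.32, with 0 called by edgeR, 7 at an unadjusted p under 0.05, and 1 each by DESeq2 and limma voom, at a summed level of 0.311 to 0.869 CPM in Notch2-/- and 0.193 to 5.54 CPM in control, where control replicate 1 was the lowest of all 11 libraries. Cd3e, Cd8a, Cd8b1, Prf1 and Ifng, 5 of the 15 T and NK markers in the table, were at 0 in every Notch2-/- library and none was at 0 in every control library. The T and NK markers were counted near 0 in both groups. How many of all genes were at 0 in this way was not counted, so no result about T cells is drawn from it. No microglia or endothelial marker was at 0 throughout either group. In bulk samples fewer cells of a type and less RNA per cell cannot be told apart. With the mean log2 level of the microglia and macrophage markers in the model, 19 of the 46 genes passed, 11 higher and 8 lower in Notch2-/-, and no others. The part that other cells had in the interferon and MHC values was not tested.

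Glial identity and proliferation genes did not pass one by one. Of 32 cell cycle genes 31 had a positive log2 fold change, with a median of 0.53, where the median of all genes was 0.01. None passed with edgeR, 9 had an unadjusted p under 0.05, DESeq2 called 1 and limma voom 11, all higher in Notch2-/-. Top2a, which untangles DNA in dividing cells, averaged 552 ± 167 CPM in Notch2-/- and 315 ± 126 CPM in control (SD, n = 5 and 6, log2 fold change 0.81 ± 0.30, adjusted p = 0.241). The summed level was 4529, 4396, 3152, 3318 and 4639 CPM in Notch2-/- and 1865, 2688 and 3524 CPM in control, with overlap. Its median was 4310 CPM in Notch1-/- (1197 to 5315 CPM), 5002 CPM in Rbpj-/- and 4879 CPM in Notch1-/-Notch2-/-, also above that of control. Against Notch1-/- the list had a median log2 fold change of 0.07, with 19 of 32 genes positive. Against Rbpj-/- it was -0.34, with 3 positive, and edgeR called 0 in both. The 17 genes of MAPK output, switched on by growth factor receptors such as that of PDGF, had 16 positive values and a median of 0.38, with 0 called by edgeR, 3 at an unadjusted p under 0.05, 0 by DESeq2 and 3 by limma voom. Their median was 0.04 against Notch1-/- and 0.04 against Rbpj-/-. Astrocyte, oligodendrocyte precursor and neural stem lists had medians of 0.04, -0.03 and 0.32 with 0 called each by edgeR and 3, 1 and 4 genes at an unadjusted p under 0.05. DESeq2 called 1, 0 and 1 and limma voom 3, 3 and 3 of them, where of all 15617 genes they called 342 and 1790. The 17 genes of mature oligodendrocytes had a median of -0.75, with 0 called by edgeR, 0 at an unadjusted p under 0.05, 0 by DESeq2 and 4 by limma voom, and their summed level was widely spread, 3108 to 23772 CPM in Notch2-/- and 10734 to 28048 CPM in control. Pdgfra, the PDGF receptor of these cells, averaged 5883 ± 1094 CPM in Notch2-/- and 4511 ± 1130.1 CPM in control (adjusted p = 0.497).

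**Figure D5:**
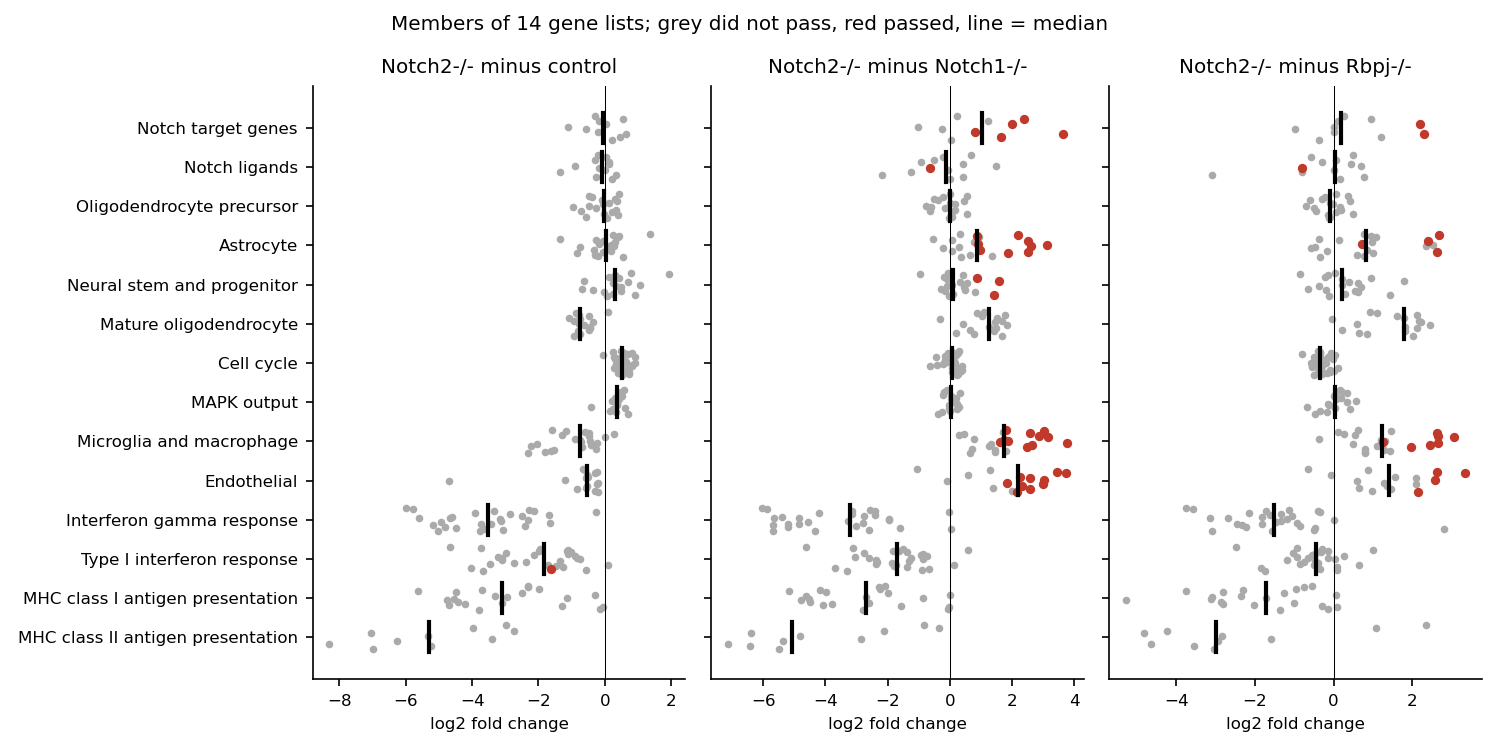
The log2 fold changes of the members of 14 gene lists for Notch2-/- minus control, minus Notch1-/- and minus Rbpj-/-, 1 point per gene with a line at the median of the list. Red points passed, which is 1 gene against control (Ifi27) in these lists, while against Notch1-/- 5 Notch target genes and 11 microglia and macrophage genes are red on the higher side.

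Libraries labelled Notch2-/- were then set directly against libraries labelled Notch1-/-, in which Notch1 counts were not reduced. Here 476 genes passed (3.05%), 349 higher in Notch2-/- (2.23%) and 127 lower (0.813%), and 145 without the 3 libraries of both Xist and Ddx3y. Without Notch2-/- replicate 3, 4 or 5 there were 312, 291 and 290, and without Notch1-/- replicate 1 or 5 there were 272 and 817. The comparison shares its Notch2-/- libraries with that against control. Of the 10 Notch target genes, 5 were higher in Notch2-/- than in Notch1-/- cells and 0 lower. Hes5 had 2.38 to 8.54 CPM in Notch2-/- and 0.312 to 0.705 CPM in Notch1-/- (log2 fold change 3.64 ± 0.41, adjusted p = 1.27e-05). Nrarp had 29.4 to 41.7 CPM in Notch2-/- and 1.78 to 10.1 CPM in Notch1-/- (2.38 ± 0.32, adjusted p = 0.000104), and Id4 2.27 to 3.81 CPM in Notch2-/- and 0.539 to 1.32 CPM in Notch1-/- (1.98 ± 0.32, adjusted p = 0.000864). The groups did not overlap for any of these genes. Their calls held without each single library and without the 3 libraries of both Xist and Ddx3y. Hes1 (log2 fold change 1.64 ± 0.39, adjusted p = 0.0187) and Hey1 (0.80 ± 0.19, adjusted p = 0.0208) passed by less, and without the 3 libraries of both Xist and Ddx3y their adjusted p was 0.0647 and 0.164. Hes1 was also lost without Notch2-/- replicate 1 or Notch1-/- replicate 1 and Hey1 without any of 4 single libraries. Lfng was higher in Notch2-/- (log2 fold change 2.57 ± 0.48, adjusted p = 0.00286) and the ligand Dll3 lower (-0.64 ± 0.15, adjusted p = 0.0201), the last lost without Notch2-/- replicate 5 (adjusted p = 0.0726).

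The genes with the smallest p in that comparison that were higher in Notch2-/- were Car8, a relative of carbonic anhydrase that acts on calcium release, Gm1943, Hes5, Plcd4, a phospholipase C, Tifa, an adaptor of inflammatory signalling, and Atp13a5. Car8 had 114 to 179 CPM in Notch2-/- and 22.6 to 45.5 CPM in Notch1-/- (log2 fold change 2.24 ± 0.19, adjusted p = 1.75e-07), and Tifa 5.65 to 9.64 CPM in Notch2-/- and 0.854 to 1.67 CPM in Notch1-/- (2.49 ± 0.30, adjusted p = 3.46e-05). Gm1943, a transcribed pseudogene, Plcd4 and Atp13a5, a cation pump of the P5 family, had log2 fold changes of 1.90 ± 0.16, 2.74 ± 0.31 and 3.96 ± 0.49 (adjusted p = 1.75e-07, 1.27e-05 and 5.26e-05). Against control Car8, Gm1943, Plcd4, Tifa and Atp13a5 did not pass (adjusted p = 0.353, 0.763, 0.365, 0.458 and 0.801). On the lower side were Notch2, 5830417I10Rik, Ankrd35 and Rnf151, which were also lower than in control, with Lima1, a binder of actin filaments (-0.68 ± 0.11, adjusted p = 0.00118), and Bcor, a corepressor (-0.74 ± 0.14, adjusted p = 0.00283). Lists of other cells and of immune response genes went in both directions. Of the markers of such cells, 11 of 22 microglia and macrophage genes, 10 of 16 endothelial, 9 of 20 astrocyte and 4 of 14 mural and fibroblast genes were higher in Notch2-/- than in Notch1-/- cells and 0 lower. Lists of T and NK cells, MHC presentation and interferon gamma response had medians on the lower side, with 0 called by edgeR and 0 by limma voom. The medians were -4.39 for T and NK cells (8 of 8 at an unadjusted p under 0.05, 3 called by DESeq2), -5.08 for MHC class II presentation (7 of 10, 7 by DESeq2), -3.20 for interferon gamma response (24 of 28, 20 by DESeq2) and -2.70 for MHC class I presentation (17 of 21, 12 by DESeq2). The type I interferon list had a median of -1.68, with 0 called by edgeR and 16 of 28 at an unadjusted p under 0.05. Of all 15617 genes in that comparison 2932 had an unadjusted p under 0.05, DESeq2 called 1099 and limma voom 1904. P2ry12, the receptor by which microglia sense nucleotides, had 44.9 ± 21.7 CPM in Notch2-/- and 5.08 ± 2.34 CPM in Notch1-/- (SD, n = 5 and 6, log2 fold change 3.14 ± 0.43, adjusted p = 0.000150). Aqp4, the water channel of astrocytes, had 24.3 ± 9.76 CPM in Notch2-/- and 4.27 ± 1.60 CPM in Notch1-/- (2.51 ± 0.42, adjusted p = 0.00122), and Tek, an endothelial receptor, 4.91 ± 2.57 CPM in Notch2-/- and 0.447 ± 0.305 CPM in Notch1-/- (3.44 ± 0.49, adjusted p = 0.000224). The microglia and macrophage markers summed to 405 to 869 CPM in Notch2-/- and 132 to 336 CPM in Notch1-/-, and the endothelial markers to 77.4 to 192 CPM in Notch2-/- and 37.7 to 105 CPM in Notch1-/-. With the mean log2 level of microglia and macrophage markers in the model, 621 genes passed, 189 higher and 432 lower in Notch2-/-, with 161 of the 476 among them. The adjusted p was then 0.000793 for Hes5, 0.00103 for Nrarp, 0.0105 for Id4 and 0.199 for Hey1.

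Against the Rbpj-/- libraries 267 genes passed (1.71%), 175 higher in Notch2-/- (1.12%) and 92 lower (0.589%), and 55 without the 3 libraries of both Xist and Ddx3y. Of the 10 Notch target genes 2 were higher in Notch2-/-, Hes5 with 2.38 to 8.54 CPM in Notch2-/- and 0.489 to 1.87 CPM in Rbpj-/- (log2 fold change 2.29 ± 0.45, adjusted p = 0.00867) and Id4 with 2.27 to 3.81 CPM in Notch2-/- and 0.418 to 0.952 CPM in Rbpj-/- (2.21 ± 0.38, adjusted p = 0.00287). The adjusted p of Hes5 was 0.0504 without Rbpj-/- replicate 4 and 0.0580 without the 3 libraries of both Xist and Ddx3y. Trnp1, a nuclear protein of neural progenitors, had 16.7 to 35.1 CPM in Notch2-/- and 1.18 to 4.08 CPM in Rbpj-/- (3.30 ± 0.44, adjusted p = 0.000334). Slc4a4, the bicarbonate carrier of astrocytes, had 17.6 to 53.8 CPM in Notch2-/- and 3.07 to 7.31 CPM in Rbpj-/- (2.69 ± 0.37, adjusted p = 0.000495), and Dpysl5, a protein of growing axons, 6.58 to 10.5 CPM in Notch2-/- and 1.02 to 1.91 CPM in Rbpj-/- (2.48 ± 0.30, adjusted p = 8.48e-05). On the lower side, the growth regulator Myc had 30.6 to 35.7 CPM in Notch2-/- and 50.3 to 109.8 CPM in Rbpj-/- (-1.41 ± 0.24, adjusted p = 0.00273), and was lower than in Notch1-/- cells as well (42.4 to 104 CPM, -1.18 ± 0.22, adjusted p = 0.00286). Rerg, a small GTPase, had 2.16 to 3.83 CPM in Notch2-/- and 37.7 to 55.7 CPM in Rbpj-/- (-4.08 ± 0.72, adjusted p = 0.00392). Without the 3 libraries of both Xist and Ddx3y the adjusted p was 0.0745 for Rerg and 0.0561 for Myc against Notch1-/-. Against control neither Trnp1, Slc4a4, Dpysl5, Myc nor Rerg passed (adjusted p = 0.411, 0.679, 0.155, 0.834 and 0.240). Of the microglia and macrophage list 7 of 22 genes were higher in Notch2-/- than in Rbpj-/- cells, at summed levels of 405 to 869 CPM in Notch2-/- and 214 to 367 CPM in Rbpj-/-. With the mean log2 level of those markers in the model, 254 genes passed, 133 of them among the 267. The adjusted p was then 0.0130 for Hes5, 0.00913 for Id4, 0.00109 for Trnp1 and 0.0269 for Myc. The number that passed was 170, 116 and 143 without Notch2-/- replicate 1, 4 or 5, and 103, 1113 and 67 without Rbpj-/- replicate 1, 3 or 4.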

How the data were processed

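Sorted glioma cells were profiled as bulk RNA, with TRIzol extraction, the TruSeq Stranded RNA LT kit and an Illumina NextSeq, per the labels' protocols. The authors deposited counts per gene, whose reads STAR had placed on mm10 (per the submitters' processing notes). Which tool counted them, with what annotation and strand rule, is not given in the sources used here, and overlapping, antisense and near-identical genes are uncertain. Of 24454 genes listed, 24374 matched a RefSeq table of GRCm38.p6 by Entrez identifier, and 80, with 0.348% of counts, did not.

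All 26 libraries entered one fit with genotype as its only term, after filterByExpr (15617 genes) and TMM scaling, and contrasts were tested in R 4.3.3 with edgeR 4.0.16 (robust quasi-likelihood F-test) with Benjamini-Hochberg adjustment over all genes at 0.05. Rose, fell and passed refer to that test. The standard error is the log2 fold change over the root of F, and CPM uses TMM-scaled totals. The common biological coefficient of variation was 0.368. The procedure was tested on simulated data. The fewest counts in any of these libraries were 30868828 (in Rbpj-/-). No 2 replicates were alike within sampling noise (smallest chi-square per gene 76.4 among Notch2-/- and 86.6 among control libraries).

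Genes and lists were chosen with earlier results of these data known. Named genes are the 15 largest rises and falls among those that passed (mean log2 CPM of at least 1, all Notch2-/- libraries save at most 1 on one side of the control median, no predicted genes or pseudogenes), Notch1 to Notch4, Rbpj and Trp53, up to 4 that passed per list or else its 2 highest, the Notch lists, and the 6 smallest p in each direction against Notch1-/- and Rbpj-/-. Some genes that the rule names are not reported here. Lists are described by counts and medians, with no test. Alternatives were DESeq2 size factors, no filter, at least 10 CPM in 4 libraries, DESeq2 1.42.0 (Wald test), voom of limma 3.58.1 with quality weights, the replicate block, only the groups compared, a microglia or Xist covariate, and libraries left out.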

Additional observations from a re-analysis of the deposited data

Results flagged for a closer look

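In 164 groups of values (the genes given for Notch2-/- minus control, in Notch2-/- and in control), 11 held 1 library far from the rest by Dixon's gap criterion, which chance meets in about 1 of 20 groups. In Notch2-/- cells, replicate 5 stood apart for Rnf151 (0.207 CPM, the others at 0), D330041H03Rik (3.77 CPM, the others at 0.874 to 1.71) and Notch3 (3.44 CPM, the others at 1.12 to 1.72). Replicate 3 was the lowest for Pisd-ps3 (79.4 CPM, the others at 147 to 158) and BC147527 (0.0222 CPM, the others at 0.0874 to 0.107). Replicate 1 was the highest for Lfng (21.8 CPM, the others at 6.06 to 10.3), replicate 2 for Irgm1, a GTPase of the interferon response (244 CPM, the others at 47.4 to 72.2), and replicate 4 for Il2rb, a receptor of T and NK cells (0.267 CPM, the others at 0.0414 to 0.0667). In control cells, replicate 1 was the highest for Hes1 (21.3 CPM, the others at 11.9 to 15.0), replicate 3 for Trp53 (15.2 CPM, the others at 8.98 to 10.9) and replicate 5 for F630042J09Rik (0.0210 CPM, the others at 0). These are values only, and no cause was tested.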

How the results depend on the processing

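Counts of genes depended on the setting, and are given for Notch2-/- minus control, minus Notch1-/- and minus Rbpj-/- in that order. The filter of 10 CPM in 4 libraries left 16 (7 higher, 9 lower in Notch2-/-), 184 (130 and 54) and 91 (62 and 29), with fewer genes tested. The Wald test of DESeq2 gave 342 (87 and 255), 1099 (627 and 472) and 728 (436 and 292), and limma voom 1790 (845 and 945), 1904 (1203 and 701) and 742 (470 and 272). With only the compared libraries in the fit there were 179 (35 and 144), 292 (250 and 42) and 87 (69 and 18). The replicate block gave 25 (11 and 14), 298 (244 and 54) and 130 (99 and 31). Without the 3 libraries of both Xist and Ddx3y there were 12 (8 and 4), 145 (127 and 18) and 55 (44 and 11). The microglia and macrophage score gave 19 (11 and 8) against control, 621 (189 and 432) against Notch1-/- and 254 (143 and 111) against Rbpj-/-, and the Xist covariate 298 (233 and 65) against Notch1-/-. Leaving out single libraries gave 21 to 84 against control, 272 to 817 against Notch1-/- and 67 to 1113 against Rbpj-/-. The size factors of DESeq2 (46, 491 and 255) and no filter (42, 403 and 203) stayed within 1.5 times. What caused these shifts was not tested.

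The replicate numbers are shared by the groups, but samples of one number did not all deviate together (correlations of 0.16, -0.05, 0.57, 0.03 and 0.02 for replicates 1 to 5), and 1 of 5 numbers, replicate 3, correlated best with its own. What a shared number stands for is not stated in the sources used here. These correlations cannot settle it, since every other difference between libraries enters them too. Under the block the adjusted p of Notch2 against control was 0.0565. No gene named here that passed in the main fit or under an alternative run for it changed direction there. For genes that passed in neither, direction was not compared. Of 46 genes against control, 8 passed under every alternative that tested them. Rps2, Rpl30, Gm12191 and Scnm1 passed under all 21 alternatives, single libraries left out included. Ccna1, Hfm1, Gm6756 and S100a3 were tested under only 20 and passed under those. Depth limits the genes counted near 0, such as Rnf151 and Cd5l.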

Other observations

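Levels in Notch1-/-Notch2-/- cells, which enter no comparison here, were 2.71 to 5.99 CPM for Tnn, 7.29 to 18.0 CPM for Hfm1, 1.38 to 2.85 CPM for S100a3 and 0.848 to 1.72 CPM for Gm6756, a pseudogene on which Notch2-/- cells had 0.704 to 1.35 CPM and control cells 0 to 0.150 CPM. Tmem181b-ps, a pseudogene, had 100.1 to 228 CPM in Notch2-/- and 21.8 to 28.8 CPM in control (adjusted p = 0.00973). In Notch1-/- cells it lay near the controls in replicates 1, 5 and 6 (27.6, 26.4 and 24.7 CPM) and well above them in replicates 2, 3 and 4 (113, 181 and 247 CPM). Gdpd3 had 0.348 to 59.5 CPM in Notch1-/- and 0.234 to 0.789 CPM in Rbpj-/- cells.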
